A study of Mus musculus with 4 samples.

Results

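The genes described are the transcription factors that thymocytes induce when the T cell receptor is engaged (Nr4a1, Nr4a2, Nr4a3, Egr1, Egr2 and Egr3), the Egr corepressors Nab1 and Nab2, and the surface proteins Cd69 and Itm2a. They were measured on Affymetrix arrays of sorted CD4+CD8+ double-positive thymocytes, immature T cells that carry both coreceptors and are tested for receptor specificity in the thymus. Every probe set whose only gene symbol in the platform annotation is one of these 10 genes was taken, without reference to its values. This gave 18 of the 45037 probe sets on the array, for 9 of the 10 genes. No probe set was named for Itm2a in the annotation used, so Itm2a is not analysed here.

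The arrays compared were of thymocytes from mice labelled hCD2-iCre x Gfi1fl/fl (2 arrays), in which an improved Cre recombinase is driven by human CD2 regulatory elements, active in lymphoid cells, and both copies of Gfi1 are floxed, and of thymocytes from mice labelled WT (2 arrays). The labels do not describe the WT mice as carrying the recombinase, and an effect of Cre cannot be told apart from one of the floxed gene. All mice were C57BL/6 and received no treatment, per the labels, and their ages are not given in the sources used here. Whether replicates 1 and 2 came from separate animals is not given in the labels, and the p-values then reflect only the spread among these samples, which may be technical.

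Engagement of the T cell receptor activates a Ras and ERK branch and a calcium and calcineurin branch. The ERK branch acts through serum response factor and its ternary complex partners and is the main route to the Egr genes, while calcium acts through NFAT and MEF2 factors and is a main route to the Nr4a genes. EGR proteins are zinc-finger activators needed for positive selection, NAB1 and NAB2 bind them and dampen their activity, and NR4A proteins are orphan nuclear receptors linked to negative selection and T cell tolerance. CD69 is an early activation marker that retains cells in the thymus by removing the sphingosine-1-phosphate receptor S1PR1 from the surface.

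The upstream sequences of the Nr4a genes are shown because these 3 relatives are induced by the same signals, with those of Egr2 and Nab1 for comparison. Each is the 250 bases before a RefSeq start site (GRCm38.p6), written 5′ to 3′ on the gene's strand. Capitals mark TGACG (the core of the cyclic-AMP response element), GCGTGGGCG or GCGGGGGCG (EGR sites) and the CArG box of serum response factor, each searched on both strands, and none of the capital stretches overlap. The Nr4a1, Egr2 and Nab1 windows, and most of the Nr4a3 window, lie inside the gene's annotated span, because other transcripts start further upstream.
Nr4a1 (chr15:101266596-101266845, plus strand): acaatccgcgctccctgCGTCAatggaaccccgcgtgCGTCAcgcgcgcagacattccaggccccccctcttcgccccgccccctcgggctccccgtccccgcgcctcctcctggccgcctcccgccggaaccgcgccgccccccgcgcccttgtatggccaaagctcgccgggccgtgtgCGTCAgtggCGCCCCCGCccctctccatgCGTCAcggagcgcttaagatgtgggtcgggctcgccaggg
Nr4a2 (chr2:57124004-57124253, minus strand): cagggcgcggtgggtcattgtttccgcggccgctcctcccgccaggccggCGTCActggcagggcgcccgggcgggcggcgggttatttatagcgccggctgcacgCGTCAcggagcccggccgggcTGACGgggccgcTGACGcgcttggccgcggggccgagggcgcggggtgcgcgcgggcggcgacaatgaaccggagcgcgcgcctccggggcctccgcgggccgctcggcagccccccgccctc
Nr4a3 (chr4:48045055-48045304, plus strand): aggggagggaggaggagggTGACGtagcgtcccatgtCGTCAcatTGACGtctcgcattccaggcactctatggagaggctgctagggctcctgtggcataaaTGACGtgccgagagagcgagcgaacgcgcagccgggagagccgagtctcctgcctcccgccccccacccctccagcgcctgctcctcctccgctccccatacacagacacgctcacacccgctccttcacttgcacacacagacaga
Egr2 (chr10:67537619-67537868, plus strand): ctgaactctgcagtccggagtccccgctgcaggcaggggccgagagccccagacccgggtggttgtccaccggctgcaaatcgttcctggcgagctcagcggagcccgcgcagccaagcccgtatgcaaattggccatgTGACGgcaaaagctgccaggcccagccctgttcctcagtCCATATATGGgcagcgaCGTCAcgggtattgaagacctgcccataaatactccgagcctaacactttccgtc
Nab1 (chr1:52500449-52500698, minus strand): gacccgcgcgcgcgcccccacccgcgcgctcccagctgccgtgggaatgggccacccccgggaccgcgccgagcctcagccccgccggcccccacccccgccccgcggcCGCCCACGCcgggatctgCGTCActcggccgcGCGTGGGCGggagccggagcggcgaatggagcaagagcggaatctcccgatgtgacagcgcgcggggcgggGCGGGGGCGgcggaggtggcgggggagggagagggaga

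Each of the 3 Nr4a windows held 4 copies of the TGACG core. Of all 32851 promoter windows of the same length, 17.8% held the core at least once and 0.137% held 4 or more copies. The full element, TGACGTCA, was in none of the windows shown and in 1.55% of all windows. The core of the NFAT motif, GGAAA, occurred once in the Nr4a2 window and not in the Nr4a1 or Nr4a3 window. It was in 55.6% of all windows. The Egr2 window shown held 2 copies of TGACG around 1 CArG box, which 1.47% of all windows contain. It is 1 of 5 overlapping or neighbouring windows listed for Egr2, and none of the others held more of the marked motifs. The Egr2 window starting at 67535249 held neither motif, and the one starting at 67537316 held a CArG box but no TGACG. The share of all windows is therefore no test of the window shown. The Nab1 window held 3 EGR sites and the Nr4a1 window 1, against 3.06% of all windows with at least 1 and 0.0335% with 3 or more. The cut-offs of 4 cores and 3 EGR sites equal the counts in these same windows, so these shares are descriptions and not tests. The set of all windows was not matched for G and C. The Nab1, Nr4a2 and Nr4a1 windows were rich in G and C (80.8%, 80.0% and 74.4% of bases). The core of the motif known for GFI1, AATC, occurred once each in the Nr4a1, Nab1, Nab2 and shown Egr2 windows and not in the Nr4a2 and Nr4a3 windows, and 69.0% of all windows contain it. Other Egr2 windows held up to 3 copies of AATC. A match of letters is a description and does not show that a factor binds.

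**Figure D1:**
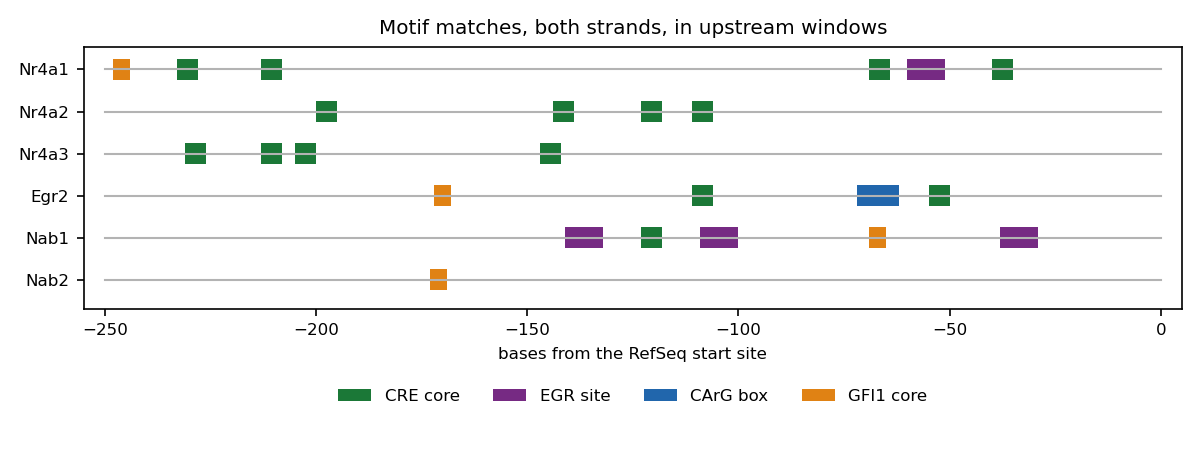
Positions of motif matches on either strand in the 250 bases before the RefSeq start site of 6 genes, with 1 window drawn for Egr2. That window is the first of those with the most matches other than AATC. The x axis is distance from the start site in bases, and coloured blocks are the CRE core (TGACG), EGR sites, the CArG box and the GFI1 core (AATC). The Nr4a genes each show 4 CRE cores and Nab1 shows 3 EGR sites.

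Values are log2 RMA signals per probe set, and a difference of 1 is a 2-fold ratio of signals. The 4 arrays had medians between 3.53 and 3.55. Gfi1 itself gave 11.47 and 11.32 on the arrays labelled hCD2-iCre x Gfi1fl/fl, against 10.17 and 10.08 on the arrays labelled WT, so its probe set was higher under the hCD2-iCre x Gfi1fl/fl label (difference 1.27, limma, adjusted p = 0.00977). That call was lost without WT replicate 1 or WT replicate 2 (limma, adjusted p = 0.0526 and 0.0683, in a range of 0.00464 to 0.574 over the alternatives). The position of the probe set relative to the floxed part is not given in the sources used here, and if it lies outside that part it checks nothing, so every direction below is one between labels. The double-positive markers were bright on every array: the brightest probe sets of Cd8a, Cd8b1 and Rag1 lay between 12.18 and 12.78 and that of Cd4 between 8.24 and 8.66, and none of them was called. Over all 45037 probe sets, 345 (0.766%) passed a Benjamini-Hochberg threshold of 0.05 in limma and are termed called. On the arrays labelled hCD2-iCre x Gfi1fl/fl, 299 of these (0.664%) had higher signals, and lower signals were found for 46 (0.102%). Without WT replicate 1 the count was 178, and without WT replicate 2 it was 168.

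None of the 18 probe sets for the receptor-induced genes was called in either direction (limma, lowest adjusted p = 0.508), where 0.766% of all probe sets were. At an unadjusted p under 0.05 there was 1, that of Nr4a1, against 7.64% of all probe sets. An ordinary t statistic called 0 of the 18, but it called only 1 of the 45037 probe sets on the array. It put 1 of the 18, a probe set of Nr4a3, under an unadjusted p of 0.05, and 3080 of the 45037. Differences lay above 0 for 10 probe sets and below 0 for 8, with a median of 0.03 against -0.01 over all probe sets. The median size of the difference was 0.15, against 0.11 over all probe sets and 0.17 over those brighter than the array median on all 4 arrays. The 95% interval lay wholly between -1 and 1 for 16 of the 18, the exceptions being Nr4a1 and the brightest Nr4a3 probe set. A 2-fold ratio of signals thus lay outside the unadjusted interval of the others. Among these, the Nr4a2, Egr3, dimmer Nr4a3 and dimmest Nab1 probe sets had signals near or below the array median. RMA compresses differences there, so their narrow intervals do not bound a change in RNA. In RNA of a sorted population, fewer expressing cells and less RNA per cell cannot be told apart.

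**Figure D2:**
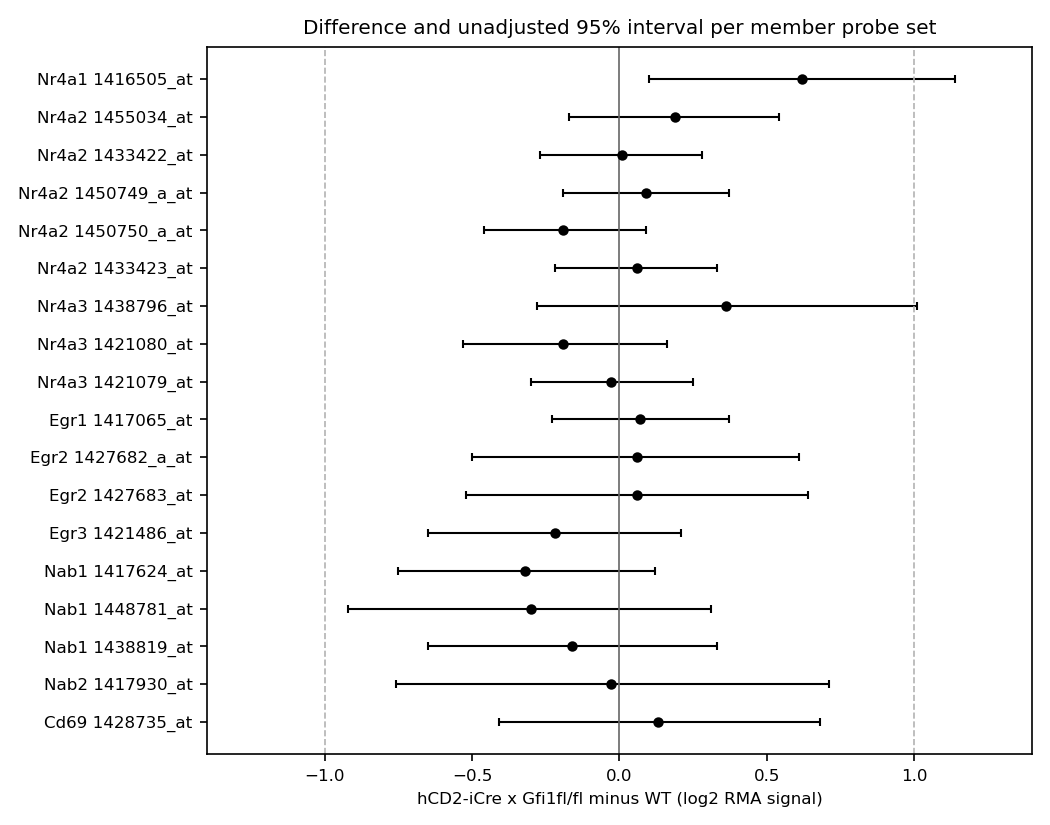
Difference in log2 RMA signal, hCD2-iCre x Gfi1fl/fl minus WT, for each of the 18 probe sets (2 arrays per label), with bars for the unadjusted 95% interval from limma. Dashed lines mark a 2-fold difference, and the Nr4a1 interval, from 0.10 to 1.14, is the one that does not include 0.

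The largest difference among these genes was that of Nr4a1, which encodes NUR77, an orphan receptor whose level in thymocytes follows the strength of receptor signals. Its probe set gave 9.04 and 8.93 on the arrays labelled hCD2-iCre x Gfi1fl/fl, against 8.56 and 8.17 on the arrays labelled WT. Both arrays labelled hCD2-iCre x Gfi1fl/fl lay above both arrays labelled WT. The means were 8.99 ± 0.08 under the hCD2-iCre x Gfi1fl/fl label and 8.37 ± 0.28 under the WT label (SD, n = 2 each), a 1.54-fold ratio of signals and a difference of 0.62 ± 0.22 (SE; 95% interval 0.10 to 1.14). The test over all probe sets did not call it (limma, adjusted p = 0.508; 0.329 to 0.794 over the alternatives). The difference was 0.43 without WT replicate 2 and 0.82 without WT replicate 1. Leaving out 1 array could not change its sign, because the groups did not overlap. The alternatives that kept all 4 arrays gave 0.62 to 0.64, and most of them cannot move a difference.

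Nr4a3, which encodes NOR1, was read by 3 probe sets that did not go the same way. The brightest gave 5.85 and 6.35 on the arrays labelled hCD2-iCre x Gfi1fl/fl, against 5.82 and 5.65 on the arrays labelled WT, a difference of 0.36 ± 0.27 (SE; limma, adjusted p = 0.893). Replicate 2 of the hCD2-iCre x Gfi1fl/fl label stood above the other 3 arrays, and without it the difference was 0.11. A dimmer one gave 3.56 and 3.52 on the arrays labelled hCD2-iCre x Gfi1fl/fl, against 3.74 and 3.71 on the arrays labelled WT, a difference of -0.19 ± 0.14 (SE). Its groups did not overlap, at signals near the array medians, where RMA signals carry little information on transcript amount. The third differed by -0.03.

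Nr4a2, which encodes NURR1, was dim on all 5 of its probe sets, with every value between 2.70 and 3.61. Of the 5, 4 lay below the array median on all 4 arrays, so a lower level of Nr4a2 was not detectable. The brightest gave 3.39 and 3.61 on the arrays labelled hCD2-iCre x Gfi1fl/fl, against 3.43 and 3.19 on the arrays labelled WT, and the groups overlapped. Differences over the 5 ran from -0.19 to 0.19.

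Egr1, the zinc-finger factor induced first and most broadly by mitogens, was bright on every array and varied by 0.14 over the 4. Its probe set gave 10.81 and 10.76 on the arrays labelled hCD2-iCre x Gfi1fl/fl, against 10.75 and 10.67 on the arrays labelled WT. The signals under the hCD2-iCre x Gfi1fl/fl label were both above those under the WT label, but by less than the gap between the WT arrays. The difference was 0.07 ± 0.13 (SE; 95% interval -0.23 to 0.37; limma, adjusted p = 0.998), which puts the ratio of signals between 0.854 and 1.30.

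Egr2, which acts with Egr3 in selection and in the natural killer T cell lineage, was read by 2 probe sets that matched each other. The brighter gave 7.53 and 7.44 on the arrays labelled hCD2-iCre x Gfi1fl/fl, against 7.57 and 7.29 on the arrays labelled WT, with a difference of 0.06 ± 0.24 (SE; 95% interval -0.50 to 0.61). The other gave 7.47 and 7.40 on the arrays labelled hCD2-iCre x Gfi1fl/fl, against 7.57 and 7.19 on the arrays labelled WT, with a difference of 0.06 as well. On both, WT replicates 1 and 2 enclosed the arrays labelled hCD2-iCre x Gfi1fl/fl. Egr3 was dim, at 3.64 and 3.27 on the arrays labelled hCD2-iCre x Gfi1fl/fl and 3.80 and 3.55 on the arrays labelled WT, and its groups overlapped (difference -0.22; limma, adjusted p = 0.914).

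**Figure D3:**
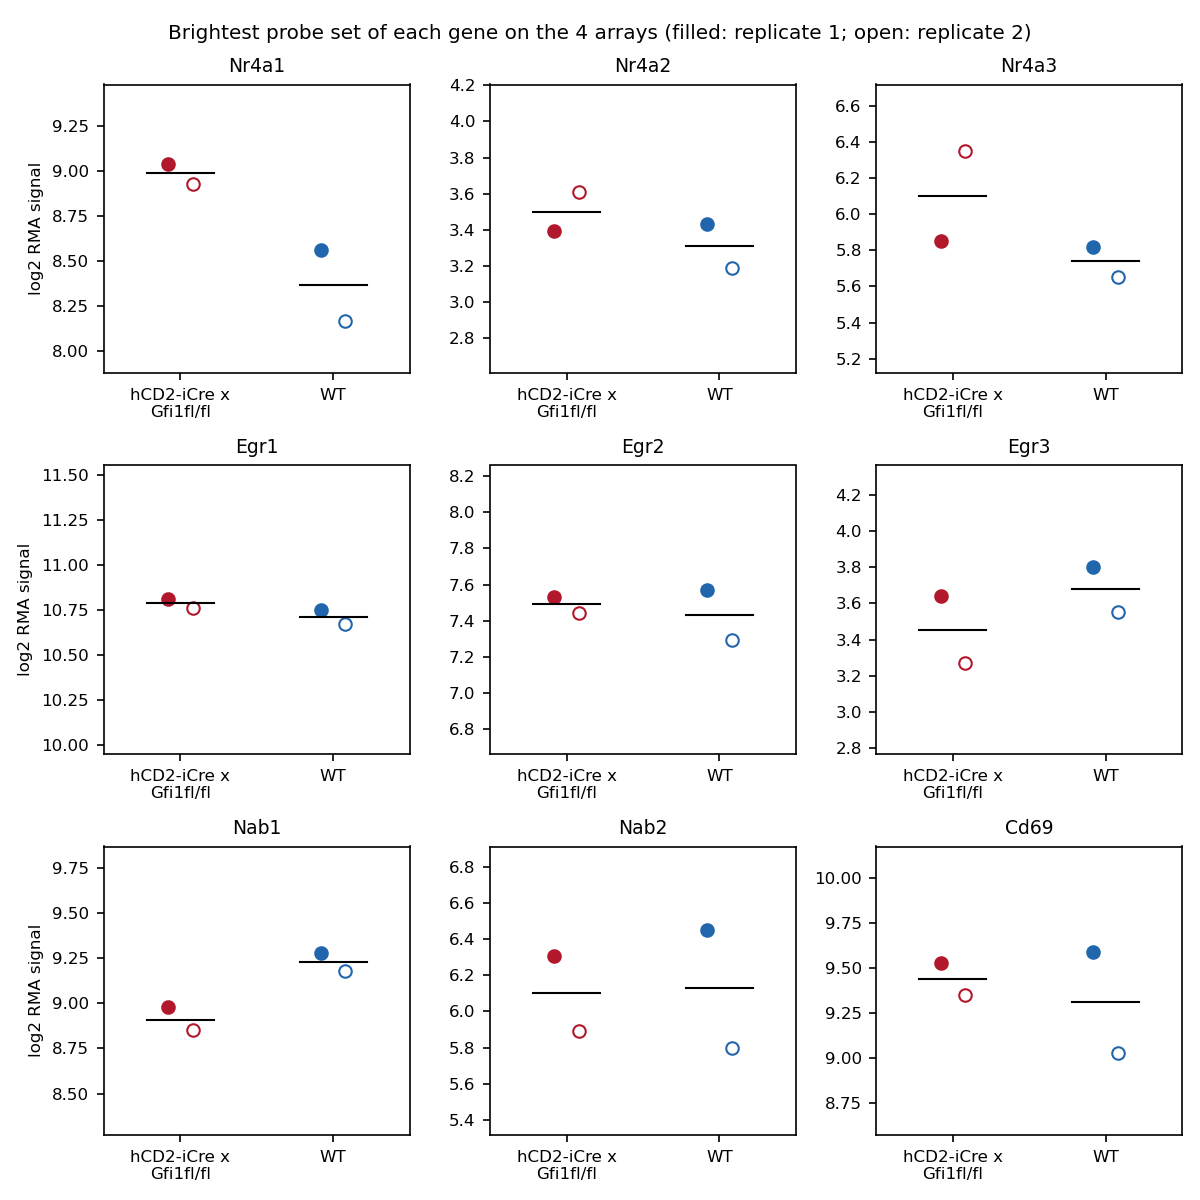
Log2 RMA signal of the brightest probe set of each of the 9 genes on the 4 arrays, hCD2-iCre x Gfi1fl/fl (red) left of WT (blue), filled circles for replicate 1, open circles for replicate 2 and a line for the mean. The y axis spans the same number of log2 units in every panel. Nr4a1 is higher and Nab1 lower on both arrays labelled hCD2-iCre x Gfi1fl/fl, and neither was called.

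The corepressor genes did not pass the test either. All 3 Nab1 probe sets were lower on average on the arrays labelled hCD2-iCre x Gfi1fl/fl. The brightest gave 8.98 and 8.85 on the arrays labelled hCD2-iCre x Gfi1fl/fl, against 9.28 and 9.18 on the arrays labelled WT, so the groups did not overlap. The difference was -0.32 ± 0.18 (SE; 95% interval -0.75 to 0.12; limma, adjusted p = 0.815). The other 2 differed by -0.30 and -0.16, and their groups overlapped. The dimmest of the 3 changed sign, to 0.09, without WT replicate 2. Nab2, itself an EGR-induced gene in other cells, gave 6.31 and 5.89 on the arrays labelled hCD2-iCre x Gfi1fl/fl and 6.45 and 5.80 on the arrays labelled WT. The gap between its replicates was wider than the difference between the labels, which was -0.03 ± 0.31 (SE), and without WT replicate 1 it was 0.30.

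Cd69 was bright under both labels. Its probe set gave 9.53 and 9.35 on the arrays labelled hCD2-iCre x Gfi1fl/fl, against 9.59 and 9.03 on the arrays labelled WT. The WT arrays enclosed the others, and the difference was 0.13 ± 0.23 (SE; 95% interval -0.41 to 0.68; limma, adjusted p = 0.998). Without WT replicate 2 it was -0.15 and without WT replicate 1 it was 0.41.

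The groups did not overlap for 6 of the 18 probe sets, 3 higher and 3 lower on the arrays labelled hCD2-iCre x Gfi1fl/fl, and 34.7% of all probe sets did not overlap. For 3 of the 18 (Nr4a1, the dimmer Nr4a3 probe set and the brightest Nab1 probe set) the difference between the label means exceeded the gap between replicates under both labels, as it did for 24.0% of all probe sets. Replicate 1 was higher than replicate 2 under both labels for 9 of the 18, among them the brightest probe sets of Nr4a1, Egr1, Egr2, Egr3, Nab1, Nab2 and Cd69, and for 31.4% of all probe sets. Cell cycle genes ran the other way, with a mean over 29 genes of 7.79 and 9.63 on hCD2-iCre x Gfi1fl/fl replicates 1 and 2 and of 8.56 and 9.10 on WT replicates 1 and 2. The part of this difference between replicates in the values of the receptor-induced genes was not tested.

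**Figure D4:**
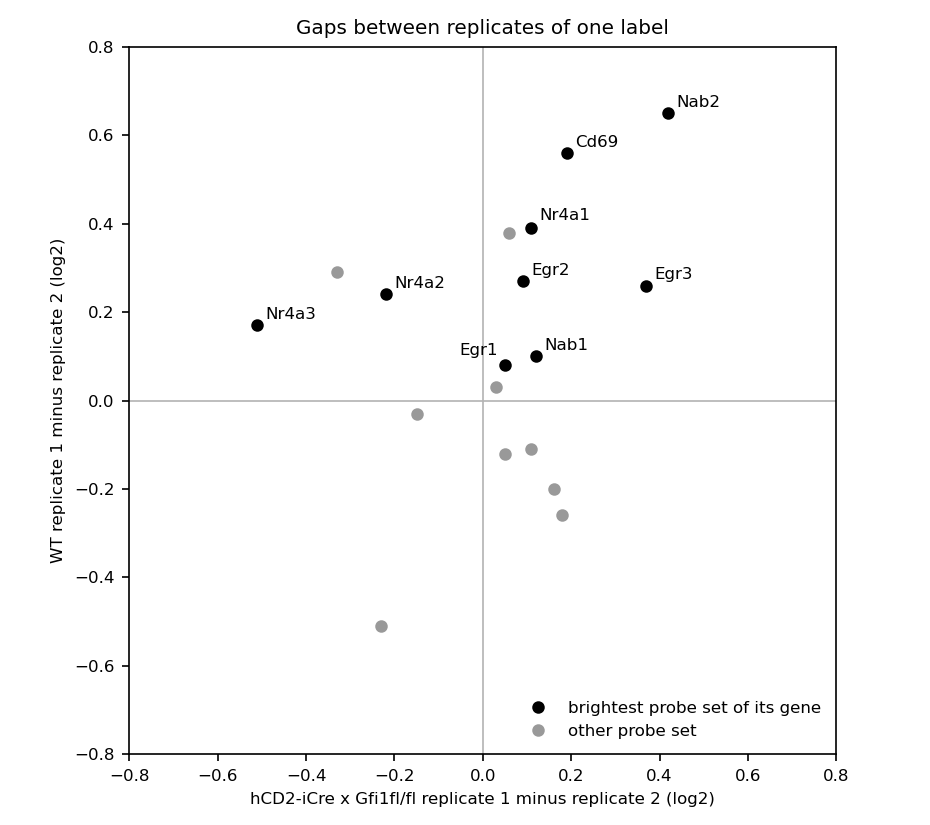
Gap between replicates 1 and 2 in log2 RMA signal for the 18 probe sets, with the gap under the hCD2-iCre x Gfi1fl/fl label on the x axis and under the WT label on the y axis. Black points are the brightest probe set of each gene and grey points the others, and 9 points lie in the upper right part, where replicate 1 is higher under both labels.

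Nr4a1 had the widest range over the 4 arrays among the brightest probe sets of these genes (0.88). The 3 genes with the most similar profile, by the root mean square difference of values centred on their own mean over the 4 arrays, were Cdk4, a cyclin-dependent kinase gene (0.0260), Psmb10, an immunoproteasome subunit gene (0.0261), and Slc30a7, a zinc transporter gene (0.0264). Cdk4 gave 9.43 and 9.33 on the arrays labelled hCD2-iCre x Gfi1fl/fl, against 8.93 and 8.61 on the arrays labelled WT. In all, 39 named genes lay within 0.1 of Nr4a1 by this measure.

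Other genes of the same pathways were read by the brightest probe set of each gene, for which 1.01% of 17097 named genes were called (0.871% higher and 0.135% lower) and the median difference was -0.02. Of 43 measured further genes induced by T cell receptor signals, 3 rose, none fell and 40 did not pass (limma), with a median difference of 0.13. At an unadjusted p under 0.05 there were 17 of the 43, 15 higher and 2 lower. The share was 7.64% over all probe sets, dim ones included. It was not computed over the brightest probe set of each gene, so the 2 are not like for like. The list was also chosen with earlier results of these data known. Other lists below also hold 10 of the 43. Ctla4, an inhibitory receptor, gave 7.56 and 6.71 on the arrays labelled hCD2-iCre x Gfi1fl/fl, against 2.99 and 3.56 on the arrays labelled WT (difference 3.86; adjusted p = 0.00503). Gadd45g, a stress and activation gene, gave 6.08 and 6.71 under the hCD2-iCre x Gfi1fl/fl label, against 3.84 and 4.15 on the arrays labelled WT (difference 2.40; adjusted p = 0.0170). Irf4, an activation-induced factor, gave 4.53 and 4.23 under the hCD2-iCre x Gfi1fl/fl label, against 3.23 and 2.91 on the arrays labelled WT (difference 1.31; adjusted p = 0.0370). Without WT replicate 1 or 2, Gadd45g had an adjusted p of 0.0934 and 0.0613 (range over the alternatives 0.00440 to 0.634) and Irf4 of 0.0803 and 0.198 (0.0204 to 0.664), and the list's count was 1. Without hCD2-iCre x Gfi1fl/fl replicate 1 the count was 5.

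Immediate-early genes and genes known to react to cell handling were measured for 20 symbols. Among them Fosl2, an AP-1 subunit gene, rose and 19 did not pass (limma). At an unadjusted p under 0.05 there were 6 of the 20, all of them higher, where the share was 7.64% over all probe sets, dim ones included. Other lists also hold 3 of the 20. Fosl2 gave 6.08 and 5.92 on the arrays labelled hCD2-iCre x Gfi1fl/fl, against 3.57 and 2.92 on the arrays labelled WT (difference 2.75; adjusted p = 0.00721). Differences lay above 0 for 15 of the 20, with a median of 0.27, where 44.6% of all named genes lay above 0. The mean level of the list was 7.25 and 7.08 on the arrays labelled hCD2-iCre x Gfi1fl/fl and 6.64 and 6.57 on the arrays labelled WT. Egr1 and Nr4a1, which belong to the same class of rapidly induced genes, are not counted in this list.

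**Figure D5:**
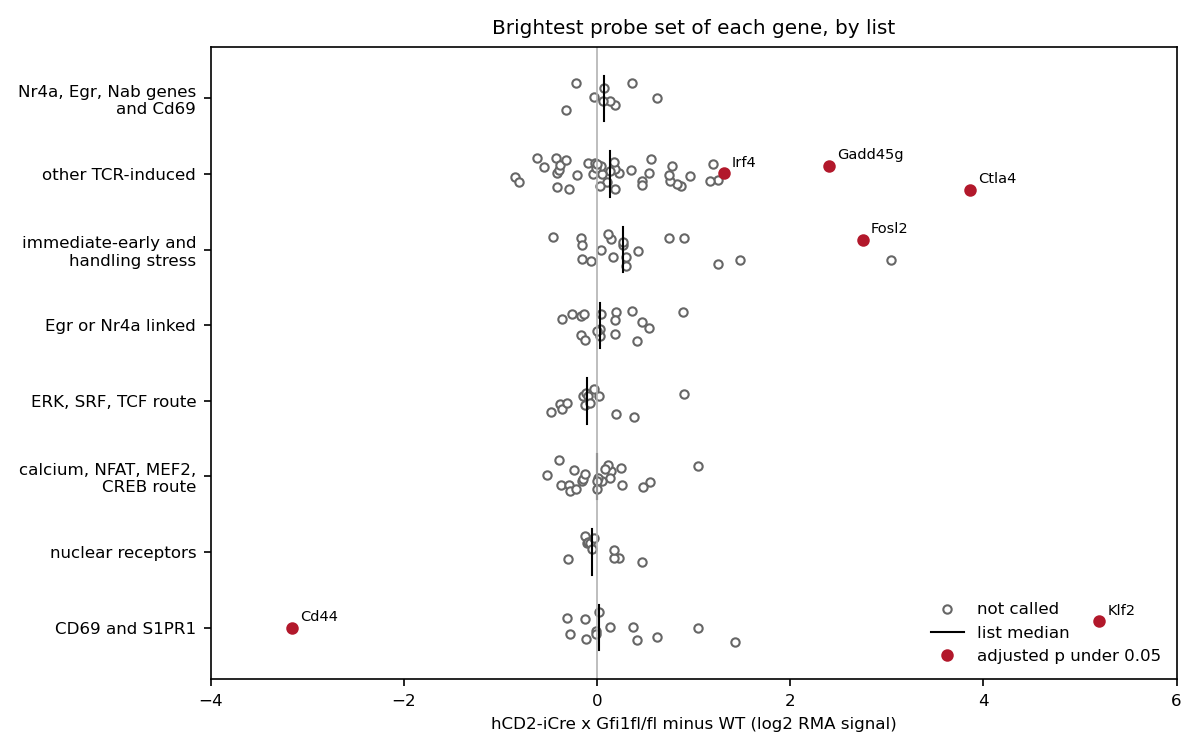
Difference in log2 RMA signal, hCD2-iCre x Gfi1fl/fl minus WT, for the brightest probe set of each gene in 8 lists, with filled points for genes called by limma at an adjusted p of 0.05 and black bars for list medians. The Nr4a, Egr and Nab genes and Cd69 lie between -0.32 and 0.62 with none called, while the called genes of the other lists drawn lie at 1.31 or above or, for Cd44, at -3.16.

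The routes leading to these genes gave no calls. Of 14 measured genes of the ERK, serum response factor and ternary complex route to the Egr genes, none was called (limma; 1 at an unadjusted p under 0.05), with a median of -0.10. The largest differences there were 0.90 for Dusp1, a MAP kinase phosphatase gene, and -0.48 for Srf, which encodes serum response factor. Of 23 measured genes of the calcium, NFAT, MEF2 and CREB route to the Nr4a genes, none was called (2 at an unadjusted p under 0.05), with a median of 0.00. The largest were 1.04 for Camk2d, a calmodulin-dependent kinase gene, and 0.55 for Ppp3ca, which encodes a catalytic subunit of calcineurin. The 2 at an unadjusted p under 0.05 were Camk2d, which was higher, and Mef2d, a MEF2 factor gene, which was lower (-0.52). Of 18 measured genes linked to EGR or NR4A factors in T cells, none was called (2 at an unadjusted p under 0.05; median 0.03), and the largest differences were 0.89 for Ikzf2, the Helios factor gene, and 0.54 for Id3, an inhibitor of E proteins known to lie downstream of EGR1. Of 11 measured nuclear receptor genes, none was called (1 at an unadjusted p under 0.05; median -0.05). There Rora differed by 0.47 and Rxrb, a retinoid X receptor gene, by -0.30.

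Of 15 measured genes around CD69 and S1PR1 trafficking, 1 rose, 1 fell and 13 did not pass (limma; median 0.02). At an unadjusted p under 0.05 there were 5 of the 15, 4 higher and 1 lower, where the share was 7.64% over all probe sets. Below the array median on all 4 arrays lay 5 of the 15. Klf2, a factor that drives S1pr1 expression, gave 9.66 and 9.97 on the arrays labelled hCD2-iCre x Gfi1fl/fl, against 4.70 and 4.53 on the arrays labelled WT (difference 5.20; adjusted p = 0.000558). Cd44, the hyaluronan receptor, gave 3.57 and 3.60 on the arrays labelled hCD2-iCre x Gfi1fl/fl, against 6.81 and 6.68 on the arrays labelled WT (difference -3.16; adjusted p = 0.00200). S1pr1 gave 5.21 and 5.30 on the arrays labelled hCD2-iCre x Gfi1fl/fl and 4.01 and 3.65 on the arrays labelled WT (difference 1.43), with an adjusted p of 0.0501. It was picked for its role beside CD69 after its values were seen.

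Markers of other cells that the sort could hold were counted in the same way. Of 9 measured genes of mature T cells, Klf2, Gimap4 and Itgb7 rose (differences 5.20, 3.92 and 2.92) and 6 did not pass, with a list median of 0.24. The mean level was 9.25 and 9.14 on the arrays labelled hCD2-iCre x Gfi1fl/fl against 7.78 and 7.66 on the arrays labelled WT, but beside S1pr1 the uncalled genes lay between -0.42 (Gimap6) and 0.24 (Slfn2), 3 of them below 0. The call among 13 markers of either gamma-delta T cells, NK cells or innate lymphocytes was Cd163l1 (difference 7.45). It was Ctla4 among 6 regulatory T cell markers and Ctss among 17 myeloid markers (difference 4.59). At an unadjusted p under 0.05 (limma) there were 5 of the 13, 3 of the 6 and 2 of the 17, all higher. The share was 7.64% over all probe sets, dim ones included. Other lists also hold 4 of the 13, 5 of the 6 and 1 of the 17. Of the 9 mature T cell genes there were 5, of which 4 were higher and 1 lower. The regulatory T cell list had a median of 0.51, with 2 of the 6 below 0. Ikzf2 (0.89) and Nrp1 (0.83) were among its higher genes. Foxp3, the defining regulatory T cell factor, gave 3.09 and 3.09 on the arrays labelled hCD2-iCre x Gfi1fl/fl, against 3.27 and 3.20 on the arrays labelled WT, below the array median on all 4 arrays. Of 13 double-positive stage genes, Dntt fell by 0.69, a call lost without WT replicate 1, WT replicate 2 or hCD2-iCre x Gfi1fl/fl replicate 2 (limma, adjusted p between 0.0645 and 0.260; 0.0347 to 0.607 over the alternatives). Differences lay below 0 for 12 of the 13, with a median of -0.17, where 44.6% of all named genes lay above 0. Of the 13, 2 had an unadjusted p under 0.05, both lower, Dntt and Themis (-0.46, not called). None was called among 29 cell cycle genes (0 at an unadjusted p under 0.05), 11 B cell markers (1), 13 thymic epithelial and stromal markers (3) or 8 erythroid and platelet markers (1). The part of other cells in the values of Nr4a1 and the other receptor-induced genes was not tested.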

How the data were processed

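RNA of flow-sorted double-positive thymocytes was measured on 1-colour Affymetrix arrays after biotin labelling, per the labels' protocols. The submitters' processing notes name RMA and Affymetrix Expression Console 1.1. The values deposited by the authors are read here as log2 RMA signals, from their range and their nearly equal quartiles on all 4 arrays, and were not normalized again. RMA compresses differences at the bottom of its range, and detection calls were not used here. With 2 arrays per label, precision is limited.

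Of 45037 probe sets, 28898 had 1 gene symbol in the platform annotation, 551 had several and 15588 were not listed. The comparison used lmFit and eBayes (limma 3.58.1, R 4.3.3), with an intensity trend and no covariate (2 residual and 5.05 prior degrees of freedom), two-sided, with p-values adjusted over all probe sets. The 16 further gene lists were those named in the report, and each list gene was represented by its brightest probe set, the one with the highest mean over the 4 arrays. The genes and lists were chosen with earlier results of these data known. Named were all 10 genes, Gfi1, 4 double-positive markers, and per list up to 4 called genes with the largest change or, where none was called, up to 2, plus genes named for their role. The labels share replicate numbers 1 and 2 but do not say that these mark a shared animal or day. Promoters came from RefSeq tables (GRCm38.p6), which held 7 of the 10 genes, and 1 of these, Itm2a, had no named probe set. Python 3.11.15 and matplotlib 3.10.9 drew the figures.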

Additional observations from a re-analysis of the deposited data

How the results depend on the processing

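Under 12 alternatives, no probe set of the receptor-induced genes was called (0 of 201 recomputed values; lowest adjusted p = 0.329). In 197 of these the direction was kept or the value moved by no more than its SE. The other 4 changed sign by more, each when 1 WT array was left out (Cd69, Nab2, 1 Nab1 and 1 Nr4a2 probe set). The block, the choices of prior and trend, the ordinary t statistic and the dropping of probe sets leave every difference unchanged. Those alternatives could therefore not change a direction, and the 197 includes them. The count over all probe sets was 205 (182 higher, 23 lower) with no intensity trend, 190 (161 and 29) with 1 probe set per named gene, where fewer are tested, and 1 (0 higher, 1 lower; 3080 at an unadjusted p under 0.05) with an ordinary t statistic, which called a probe set with no gene symbol and none of the named genes. Without the intensity trend the calls of Gfi1, Gadd45g, Irf4 and Dntt were lost, and that of Dntt also with a robust prior and with the block. With the replicate number as a block, 28 were lower, 244 were higher and 272 were called in all. Leaving out 1 array gave 168 to 368 calls, 147 to 329 of them higher and 20 to 73 lower, in fits of 1 array against 2 that assume the lone array varies like the others, and 0 calls among the receptor-induced genes. The count of other receptor-induced genes was 1 with no intensity trend, 0 with an ordinary t statistic and 1 to 5 when 1 array was left out, and the cause was not tested. Same-numbered arrays deviated together (correlation 0.30 over all probe sets), but with 2 pairs this does not show pairing, and under the block 0 of the 18 probe sets were called. A second quantile normalization, median centring, a robust prior and leaving out the dimmer probe sets (50%) kept each count within 1.5 times its value. Signals near the array median limit what the Nr4a2, Egr3, dimmer Nr4a3 and dimmest Nab1 probe sets could show.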

Other observations

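Of the 43 other receptor-induced genes, 26 lay above 0 and 17 below, and of the 17 at an unadjusted p under 0.05, 15 were higher. Those named here were picked for their role after their values were seen, and none was called by limma. Cd5, a surface regulator whose level follows receptor signal strength, gave 10.20 and 9.72 on the arrays labelled hCD2-iCre x Gfi1fl/fl, against 10.44 and 10.32 on the arrays labelled WT (difference -0.42, adjusted p = 0.706). Dusp6, an ERK phosphatase gene induced by ERK itself, differed by -0.38 (adjusted p = 0.879) and Nfkbia, the inhibitor induced by NF-kB, by -0.32 (adjusted p = 0.809). Tnfaip3, another NF-kB target, gave 10.03 and 9.87 under the hCD2-iCre x Gfi1fl/fl label, against 9.92 and 9.98 on the arrays labelled WT. Among genes above 0, Tfrc, the transferrin receptor gene of growing cells, differed by 1.17 (adjusted p = 0.0793) and Rel, an NF-kB subunit gene, by 1.20 (adjusted p = 0.148).

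The AP-1 genes Jun and Fos, induced in the same time window as Egr1, had wide spreads. Jun gave 9.54 and 7.94 on the arrays labelled hCD2-iCre x Gfi1fl/fl, against 5.49 and 5.92 on the arrays labelled WT (difference 3.04; limma, adjusted p = 0.0598). Fos gave 7.65 and 6.75 under the hCD2-iCre x Gfi1fl/fl label, against 4.99 and 6.46 on the arrays labelled WT (difference 1.48; adjusted p = 0.504). Egr1 varied by 0.14 over the same 4 arrays.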
